A study of Mus musculus with 13 samples.

Results

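Mitochondrial ribosomal proteins are encoded in the nucleus, made in the cytosol and imported into mitochondria, where they form the large (Mrpl) and small (Mrps) subunits of the ribosome that translates the proteins encoded by mitochondrial DNA. Those products are core subunits of the respiratory chain and of ATP synthase, so each respiratory complex with such a subunit needs both cytosolic and mitochondrial translation. In T cells, activation through the TCR is known to be accompanied by growth and by mitochondrial biogenesis. Members were the protein-coding genes whose symbol begins with Mrpl or Mrps followed by a number, which gave 78 genes of the 35906 in the files, 49 with an Mrpl symbol and 29 with an Mrps symbol, on 17 chromosomes. Symbols do not follow function in every case. The products of Mrps30 and Mrps18a sit in the large subunit, and Mrps36 encodes a component of the 2-oxoglutarate dehydrogenase complex.

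RNA was sequenced from CD4 single-positive (CD4SP) thymocytes sorted as the most mature, M2 stage (CD69-MHCI+), with 1 library per mouse and 13 mice in all. All mice were Rag1-/- on a C57BL/6J background and carried the Lm54 TCR transgene, so that their T cells share 1 receptor specific for the listeriolysin O (LLO) peptide presented by I-Ab. CtslΔTEC mice lack cathepsin L in thymic epithelial cells, through a Foxn1-cre transgene active in thymic epithelium, and the control mice carry floxed Ctsl without the deletion according to the labels. The methods place phenotypic analyses in general in young adult mice and do not name the age of the sequenced mice. Cells of 5 CtslΔTEC and 4 control mice were taken unstimulated after sorting, and cells of 2 further CtslΔTEC and 2 further control mice were cultured for 4 h with 1 µg/ml of LLO:I-Ab monomer plus 250 ng/ml of anti-CD28. Culture, file date and stimulation cannot be told apart, because the 4 stimulated libraries share 1 file date that no unstimulated library carries, and no unstimulated library was cultured.

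Libraries held 25692380 to 39127833 estimated counts without stimulation and 8085463 to 27184520 with it, and each of the 78 members had at least 39 counts in every library. The shallowest library was that of stimulated control mouse 5. Of the markers of CD4 T cells, Cd4 was at 327 to 604 TPM (a level corrected for transcript length and scaled to the same total in each library) and Cd3e at 457 to 858 TPM in all 13 libraries. Of the maturity markers, Il7r (log2 fold change −1.08, adjusted p = 0.0019), Klf2 (−0.71, adjusted p = 0.037), S1pr1 (−0.65, adjusted p = 0.0075) and Ccr7 (−0.37, adjusted p = 0.0074, edgeR) were lower in unstimulated CtslΔTEC than in control cells. Il7r was at 31.0 to 47.2 TPM in control and at 15.8 to 27.6 TPM in CtslΔTEC cells, without overlap. These 4 genes also fell with stimulation in both genotypes. The 8 activation markers, Cd69 and Nr4a1 among them, summed to 153 to 293 TPM without stimulation and to 6954 to 10141 TPM with it. Of 8 markers of double-positive thymocytes, 7 were tested between the unstimulated genotypes and 6 were higher in CtslΔTEC cells. Their sum was 273 to 357 TPM in CtslΔTEC and 94.8 to 126 TPM in control cells, with Ptcra and Rag2 near 0 in both, and the part of these markers in the genotype comparison was not tested. Ctsl itself was at 5.41 to 9.03 TPM in unstimulated control and at 10.7 to 16.5 TPM in unstimulated CtslΔTEC thymocytes, which is no check of a deletion made in epithelial cells. In bulk RNA, fewer cells of a type and less RNA per cell cannot be told apart.

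Promoter sequence is shown for members on which the results turn, 4 of the 6 with a log2 fold change over 1.5 upon stimulation in both genotypes and 2 that fell. Each line is the 120 bases before the RefSeq start in build GRCm38.p6, read 5′ to 3′ on the strand of the gene, with capitals for any of 5 motifs described here. These stretches lie at chr17:35916441-35916560 (minus strand, Mrps18b), chr7:105811088-105811207 (minus strand, Mrpl17), chr11:120484517-120484636 (plus strand, Mrpl12), chr19:11770295-11770414 (plus strand, Mrpl16), chr8:71464806-71464925 (plus strand, Mrpl34) and chr11:115403632-115403751 (plus strand, Mrpl58).
Mrps18b: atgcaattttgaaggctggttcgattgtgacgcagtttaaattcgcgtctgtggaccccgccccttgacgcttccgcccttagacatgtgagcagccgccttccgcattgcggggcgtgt
Mrpl17: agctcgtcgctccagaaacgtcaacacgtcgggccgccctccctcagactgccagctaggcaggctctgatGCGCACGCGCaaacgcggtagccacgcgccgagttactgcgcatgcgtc
Mrpl12: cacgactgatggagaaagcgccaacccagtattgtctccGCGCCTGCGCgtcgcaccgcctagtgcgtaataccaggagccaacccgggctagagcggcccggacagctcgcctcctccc
Mrpl16: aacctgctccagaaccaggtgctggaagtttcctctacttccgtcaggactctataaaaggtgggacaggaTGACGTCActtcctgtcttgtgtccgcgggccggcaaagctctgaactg
Mrpl34: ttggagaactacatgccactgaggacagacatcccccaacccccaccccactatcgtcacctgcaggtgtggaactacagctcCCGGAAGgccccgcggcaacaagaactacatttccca
Mrpl58: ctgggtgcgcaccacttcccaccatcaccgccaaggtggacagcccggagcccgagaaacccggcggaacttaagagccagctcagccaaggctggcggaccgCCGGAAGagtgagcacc

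The letters searched, on both strands, were GCGCA and GCGC with any 1 base between them for NRF1, CCGGAAG for ETS factors, AAGATGGC for YY1, CACGTG for the E-box and TGACGTCA for the CRE. NRF1 is a regulator of nuclear genes for mitochondrial proteins, and Myc binds the E-box. In the printed stretches the NRF1 letters began 49 bases before the start of Mrpl17 and 81 bases before that of Mrpl12. The CRE letters began 49 bases before the start of Mrpl16, and the ETS letters 37 and 17 bases before those of Mrpl34 and Mrpl58. The stretch of Mrps18b holds none of the 5.

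RefSeq promoters of 300 bases (250 before and 50 after the start) were found for 69 members, as 75 entries. ETS letters were in 34.7% of them, against 11.6% of the 21263 promoters of all protein-coding genes. NRF1 letters were in 17.3% against 6.38%, and YY1 letters in 16% against 3.05%. E-box letters were in 9.33% against 7.84%, and CRE letters in 2.67% against 2.23%. Counted once per gene, E-box letters were in 5 of 69 members and in 1559 of 17492 genes, a lower share in members. ETS, NRF1 and YY1 letters were therefore more frequent in members than over all genes, while E-box and CRE letters differed by under 2 percentage points. Of the 69 members, 23 had none of the 5. A match is a description of the letters only. Letters of different motifs overlapped in 0 entries. Of the members, 18 (23.1%) have a protein-coding neighbour on the opposite strand that starts within 1000 bases in the other direction, against 6.77% of all protein-coding genes.

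In unstimulated cells the summed level of the 78 members was 3397 to 3822 TPM in the 5 CtslΔTEC mice and 3400 to 4054 TPM in the 4 control mice. After stimulation it was 5354 and 5544 TPM in the 2 CtslΔTEC mice and 5813 and 5440 TPM in the 2 control mice. Every stimulated library lay above every unstimulated one, and the genotypes overlapped at both times. Markers of other cells moved with stimulation too. Hbb-bs, a globin gene of erythroid cells, was at 73.0 to 345 TPM in the unstimulated and at 6.30 to 35.0 TPM in the stimulated libraries. The double-positive markers summed to 94.8 to 357 TPM before and to 26.1 to 63.1 TPM after it. Their part in the rise of the members was not tested. The ratio of the group means was 1.52 in control and 1.50 in CtslΔTEC cells. The members took 0.34% to 0.405% of all TPM before and 0.535% to 0.581% after stimulation. Summed TPM of Mrpl and Mrps symbols had ratios of 1.53 and 1.50 in control and 1.48 and 1.53 in CtslΔTEC cells. The median log2 fold changes per gene were 0.68 for Mrpl and 0.45 for Mrps symbols in control and 0.61 and 0.47 in CtslΔTEC cells, and the difference between the subunits was not tested. The 85 cytosolic ribosomal protein genes, measured the same way, had ratios of 1.02 and 1.06, and the 85 nuclear genes for respiratory chain subunits had ratios of 1.23 and 1.21.

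**Figure D1:**
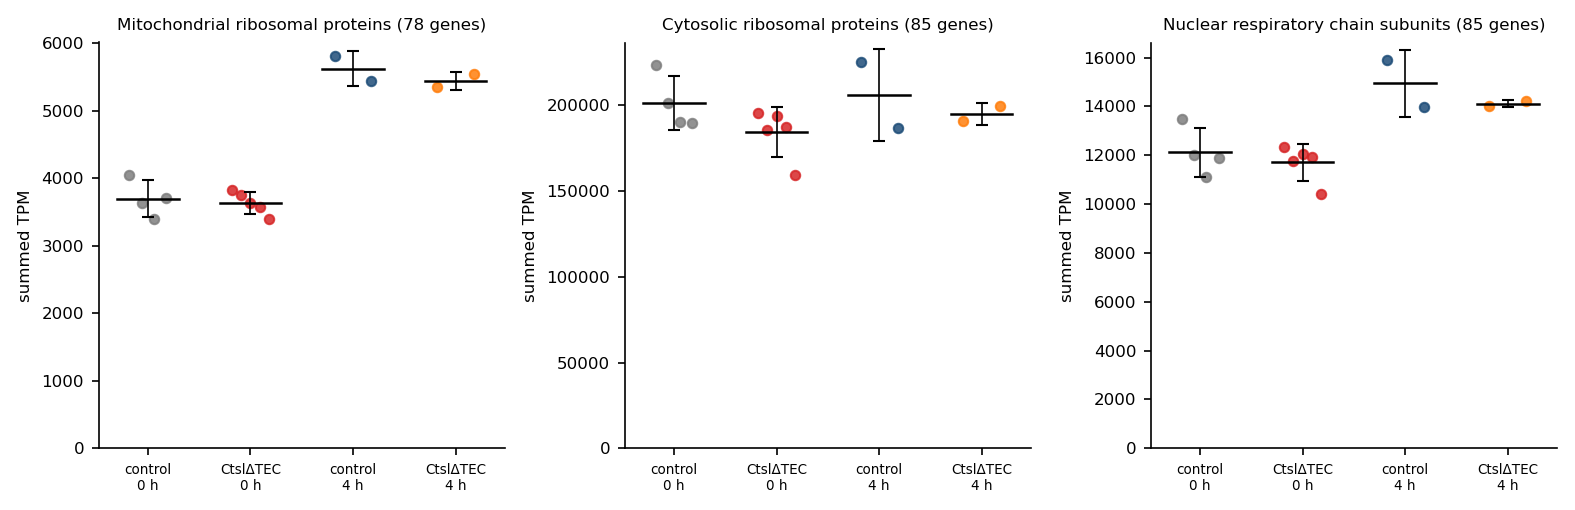
Summed TPM of 3 gene families in each library (points), with the group mean (line) and SD (bar) for 4 control and 5 CtslΔTEC mice at 0 h and 2 of each at 4 h of stimulation. The 78 mitochondrial ribosomal protein genes sum to 3397 to 4054 TPM at 0 h and 5354 to 5813 TPM at 4 h without overlap, whereas the 85 cytosolic ribosomal protein genes overlap between times.

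Levels differed widely between members. Over the 13 libraries the highest mean levels per length were those of Mrpl52 (171 TPM), Mrps21 (161 TPM), Mrpl33 (160 TPM) and Mrpl24 (144 TPM), and the lowest those of Mrpl1 (8.05 TPM), Mrpl45 (12.0 TPM), Mrpl35 (12.4 TPM) and Mrpl23 (13.7 TPM). These means pool unstimulated and stimulated libraries, and Mrpl52 was at rank 4 and 5 in unstimulated control and CtslΔTEC cells and at rank 1 in both after stimulation. Mrpl45, which lies at the tunnel exit and holds the ribosome to the inner membrane, was low in all 4 groups, with group means of 10.1 to 15.3 TPM. Stimulation changed the order. Mrps18b moved from rank 30 of 78 to rank 2 in control and from 28 to 2 in CtslΔTEC cells, and Mrpl17 from 47 to 5 and from 43 to 6. Mrpl34 moved the other way, from rank 16 to 59 in control and from 18 to 77 in CtslΔTEC cells. Mrps21, first in both unstimulated groups, was at rank 9 and 10 after stimulation.

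The response to 4 h of stimulation was asked within each genotype, with CPM (counts scaled to library size after TMM scaling), log2 fold changes and p-values adjusted over all 14241 genes tested by edgeR's quasi-likelihood test, at a threshold of 0.1. In control cells 60 of the 78 members rose, against 32.9% of all genes tested, and 5 fell, against 34.8% of all genes. In CtslΔTEC cells 59 rose, against 32.9% of all genes, and 6 fell, against 38.2%. In either direction 65 members passed in each genotype, against 67.7% of all genes in control and 71.2% in CtslΔTEC cells. Without overlap between the groups, 55 members were higher and 5 lower in control cells, against 33.4% and 36% of all genes, and 60 were higher and 7 lower in CtslΔTEC cells, against 33.8% and 38.3%. All 78 members passed the filter on low counts. The median log2 fold change of the members was 0.64 in control and 0.57 in CtslΔTEC cells, where the medians over all genes were 0.01 and −0.06. Over the cytosolic ribosomal proteins 25 of 83 tested rose in control and 41 in CtslΔTEC cells, with medians of 0.16 and 0.27, and 0 fell by edgeR or DESeq2 (0 at an unadjusted p under 0.05) but 3 and 2 by limma on TPM. By limma 14 and 23 of them rose, and by DESeq2 26 and 52. Of 79 respiratory chain genes tested, 42 rose and 7 fell in control cells and 51 rose and 13 fell in CtslΔTEC cells, with medians of 0.36 and 0.38.

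By structural class, the counts can be read against the 32.9% of all genes that rose in each genotype and the 34.8% and 38.2% that fell. Of 30 large-subunit proteins with a bacterial counterpart, 25 rose in control and 24 in CtslΔTEC cells, and 2 fell in each. Of 21 large-subunit proteins specific to mitochondria, 16 rose and 2 fell in each genotype. Of 16 small-subunit proteins with a bacterial counterpart, 12 and 13 rose and 0 and 1 fell. Of 10 small-subunit proteins specific to mitochondria, 6 and 5 rose and 1 fell in each, the lowest shares of the 4 classes (60% and 50% rising). The class medians were between 0.41 and 0.73 in control and between 0.29 and 0.78 in CtslΔTEC cells. The size of the change varied more within a class than between classes, with SDs of 0.53 to 0.76 among the members of a class in control cells and 0.61 to 0.83 in CtslΔTEC cells.

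Mrps18b (ENSMUSG00000024436; GRCm38 chromosome 17, 35910379 to 35916389) encodes 1 of 3 mammalian relatives of the bacterial protein S18, the one specific to mitochondria in the small subunit. It was at 20.7, 26.3, 25.9 and 21.0 CPM in the 4 unstimulated control mice and at 102 and 111 CPM in the 2 stimulated ones. In CtslΔTEC cells it was at 21.6 to 25.1 CPM (median 22.02) before and at 115 and 114 CPM after stimulation. All 4 stimulated libraries lay above all 9 unstimulated ones by about the same distance in both genotypes. The log2 fold changes were 2.19 (SE 0.11, adjusted p = 2.5e-10) and 2.33 (SE 0.10, adjusted p = 4.2e-11). The other relatives of S18 changed less. Mrps18a, whose product lies in the large subunit, had log2 fold changes of 1.08 and 1.04 (SE 0.11 in each, adjusted p = 8.1e-07 and 5.6e-07), and Mrps18c 0.44 and 0.58 (SE 0.14 and 0.13, adjusted p = 0.011 and 0.00097). Mrps18c was at 0.20 and 0.27 by limma on TPM, and in control cells it missed the threshold there, with the length offset (0.25) and without stimulated control mouse 5 (0.31).

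Mrpl17 (chromosome 7, 105803206 to 105811099), a large-subunit protein near the end of the exit tunnel, was at 14.5, 17.0, 17.0 and 19.9 CPM in the unstimulated and at 88.3 and 76.2 CPM in the stimulated control mice. In CtslΔTEC mice it was at 16.4 to 19.2 CPM (median 18.3) and then at 83.1 and 83.4 CPM. No stimulated value overlapped an unstimulated one. The log2 fold change was 2.26 (SE 0.11, adjusted p = 2.9e-10) in control and 2.21 (SE 0.11, adjusted p = 1.1e-10) in CtslΔTEC cells, about 4.79-fold and 4.62-fold.

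Mrps6 (chromosome 16, 92058270 to 92112227), a small-subunit protein with a bacterial counterpart, was at 14.1 to 22.6 CPM in unstimulated control and at 86.4 and 69.6 CPM in stimulated control cells. It was at 15.3 to 20.9 CPM (median 19.5) and then at 77.5 and 82.5 CPM in CtslΔTEC cells. Its log2 fold changes were 2.11 and 2.09 (SE 0.16 and 0.15). Exons of Mrps6 share 159 bases with those of Slc5a3 on the same strand, so reads from that stretch could be assigned to either gene.

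Mrpl12 (chromosome 11, 120484613 to 120489065) encodes a protein of the ribosomal stalk that also binds the mitochondrial RNA polymerase. It was at 25.8, 29.3, 29.4 and 32.6 CPM in unstimulated and at 122 and 96.1 CPM in stimulated control cells, and at 24.7 to 30.4 CPM (median 26.8) and then at 96.8 and 109 CPM in CtslΔTEC cells. Again every stimulated library was above every unstimulated one. The log2 fold changes were 1.89 (SE 0.12, adjusted p = 3.2e-09) and 1.92 (SE 0.11, adjusted p = 9.8e-10). Mrpl16 and Mrps10 (log2 fold changes of 1.69 and 1.68 in control and 1.67 for both in CtslΔTEC cells), Mrps7 (1.49 and 1.45) and Mrps2 (1.47 and 1.50) followed in control cells, and their values did not overlap between times in either genotype. Mrps10, Mrps7 and Mrps2 are small-subunit proteins and Mrpl16 a large-subunit protein, all with bacterial counterparts. In CtslΔTEC cells Mrpl52, with log2 fold changes of 1.09 in control and 1.56 in CtslΔTEC cells, and Mrpl23, with 1.12 and 1.48, also lay above Mrps7. Mrpl23 was as low as 0.44 in control and 1.00 in CtslΔTEC cells under alternative settings. Without single mice it was 0.67 to 1.39 in control cells, where it missed the threshold under 1 of 23 alternatives. In control cells 21 members passed the threshold with a log2 fold change over 1, against 17.2% of all genes, and 6 with one over 1.5, against 10.4%. In CtslΔTEC cells these counts were 22, against 17%, and 8, against 10%. The share of members with changes over 1.5 was thus near that of all genes, while their share of risers was higher.

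**Figure D2:**
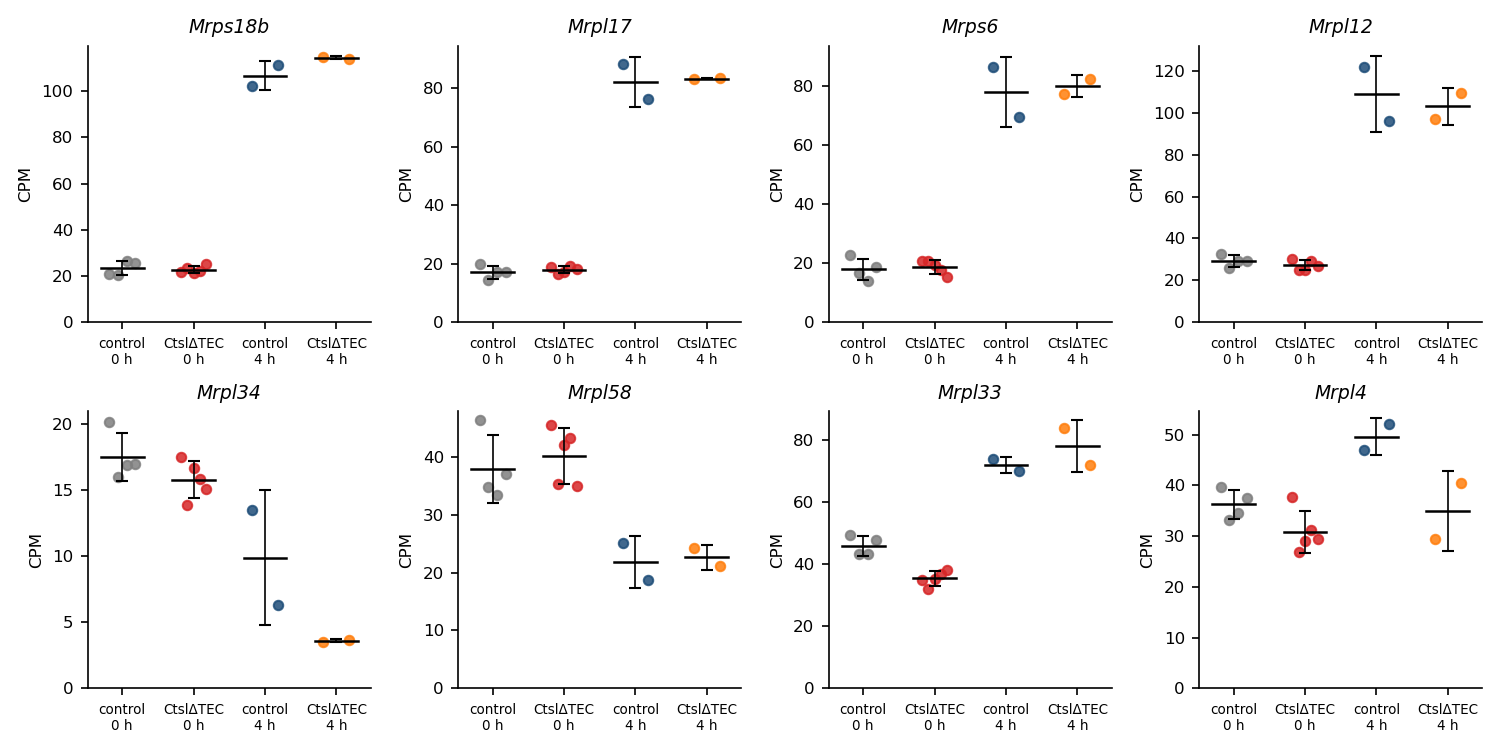
CPM of 8 members in each library (points), with the group mean (line) and SD (bar) for 4 control and 5 CtslΔTEC mice at 0 h and 2 of each at 4 h. Mrps18b, Mrpl17, Mrps6 and Mrpl12 rise without overlap in both genotypes, Mrpl58 falls in both, and Mrpl34 is lowest in the stimulated CtslΔTEC mice at 3.52 and 3.67 CPM.

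Members that fell were few, and 5 of them fell in both genotypes: Mrpl34, Mrpl58, Mrpl18, Mrps35 and Mrpl49. Mrpl34 (ENSMUSG00000034880; chromosome 8, 71464959 to 71465747), a short large-subunit protein with a bacterial counterpart, was at 16.0, 16.9, 17.0 and 20.1 CPM in unstimulated and at 13.5 and 6.29 CPM in stimulated control mice. In CtslΔTEC mice it was at 13.8 to 17.5 CPM (median 15.9) and then at 3.52 and 3.67 CPM. All stimulated values lay under all unstimulated ones, and the 2 stimulated control mice differed more from each other than the 2 CtslΔTEC mice did. The log2 fold change was −0.90 (SE 0.23, adjusted p = 0.0028) in control and −2.13 (SE 0.25, adjusted p = 1.9e-06) in CtslΔTEC cells. In control cells it was −0.39 without stimulated mouse 6 and −1.49 without stimulated mouse 5.

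Mrpl58 (chromosome 11, 115403752 to 115412674) is a peptidyl-tRNA hydrolase within the large subunit that releases peptides from stalled ribosomes. It was at 33.4 to 46.4 CPM in the 9 unstimulated mice and at 18.7 to 25.02 CPM in the 4 stimulated ones, with no overlap. The log2 fold changes were −0.82 (SE 0.17, adjusted p = 0.00056) and −0.83 (SE 0.16, adjusted p = 0.00033). Mrpl18, which binds 5S rRNA in bacteria and has been linked to a cytosolic heat shock response, had log2 fold changes of −0.57 and −0.78 (SE 0.12 in each, adjusted p = 0.00066 and 3.0e-05). Its exons share 141 bases with the opposite strand gene Tcp1, and the strandedness of the libraries is not given in the sources used here. Mrps35 had log2 fold changes of −0.34 and −0.64, which became −0.05 and −0.16 and missed the threshold when only protein-coding transcripts were counted. Mrpl49 had −0.26 and −0.30 (adjusted p = 0.080 and 0.039), and Mrps21 had −0.34 in CtslΔTEC cells (adjusted p = 0.086) and −0.22 in control cells (adjusted p = 0.28). Mrpl49 missed the threshold under 7 of 23 alternative settings in control cells (−0.17 without stimulated control mouse 6) and under 4 in CtslΔTEC cells (−0.16 without stimulated CtslΔTEC mouse 7, −0.49 without mouse 6). Under other settings Mrpl49 was at −0.13 in control and at −0.08 in CtslΔTEC cells at its weakest. Mrps21 missed the threshold under 9 of 23 settings in CtslΔTEC cells.

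Of the 78 members, 8 passed the threshold in neither genotype: Mrpl14, Mrpl27, Mrpl44, Mrpl48, Mrpl53, Mrps16, Mrps25 and Mrps31. Mrpl44, which has a fold like that of RNase III, was at 24.3 to 29.8 CPM in unstimulated and at 31.5 and 28.2 CPM in stimulated control mice, and its log2 fold changes were 0.14 (SE 0.11) and −0.08 (SE 0.11). Among the other members of interest by role, Mrps12, at the decoding site of the small subunit, had 0.32 (SE 0.15, adjusted p = 0.081) and 0.23 (SE 0.15, adjusted p = 0.20). The value of Mrps12 in control cells was 0.18 without stimulated control mouse 5 and 0.44 without stimulated control mouse 6. Mrpl41 and Mrps30, proteins of the large subunit specific to mitochondria, rose in both genotypes by 0.66 and 0.85 in control and by 0.95 and 0.94 in CtslΔTEC cells. Mrps36, the member outside the ribosome, rose by 0.49 (adjusted p = 0.011) and 0.45 (adjusted p = 0.012). It missed the threshold in control cells without stimulated control mouse 5 (0.34) and in CtslΔTEC cells without stimulated CtslΔTEC mouse 7 (0.23).

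The control and the CtslΔTEC response share no library and were set side by side. They are not independent, because both come from the same 4-group model with a shared spread. Both also carry the same difference in culture and file date. Of the 60 members that rose in control cells 55, or 91.7%, rose in CtslΔTEC cells, and these were 93.2% of the 59. Over all genes tested the same shares were 85.2% and 85%. The 5 members past the threshold in control cells alone were Mrpl22, Mrpl4, Mrps12, Mrps26 and Mrps34, and the 4 in CtslΔTEC cells alone were Mrpl24, Mrps15, Mrps33 and Mrps5. These 9 members had adjusted p of 0.40 to 0.95 in the test of the difference between the responses (edgeR), and Mrps12 in control and Mrpl24 in CtslΔTEC cells missed the threshold under 14 and 13 of 23 alternative settings. No member moved in opposite directions past the threshold. Over the 78 members the log2 fold changes of the responses had a Pearson's r of 0.95, given as a description, since members are not independent replicates. For 65 members the responses differed by less than 0.25 on the log2 scale. The test of that difference, the interaction of genotype and stimulation over 13 libraries, called 1 member higher, against 1.13% of all genes, and 1 lower, against 4.88%, or 2 in either direction, against 6.01%. The standard error of the interaction had a median of 0.18 and reached 0.35. Differences in response of a smaller size could not be resolved with 2 stimulated mice per genotype, and larger ones could be missed too. On simulated data edgeR recovered 91 of 200 interaction changes of 1 on the log2 scale.

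**Figure D3:**
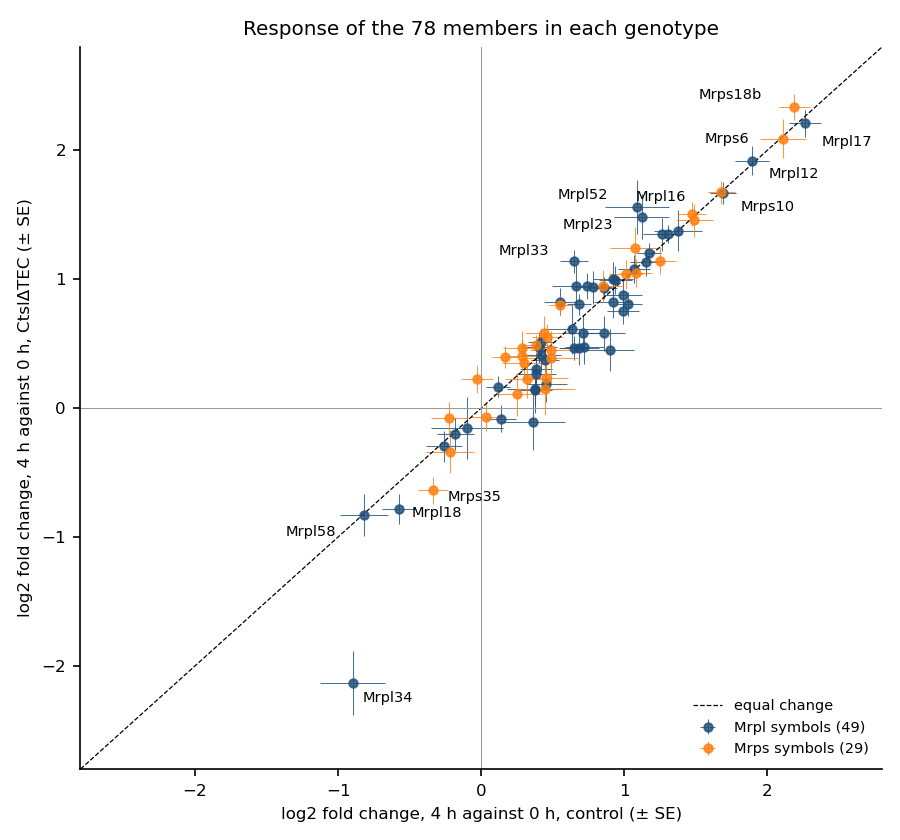
Log2 fold change from 0 h to 4 h of the 78 members in control (x axis) and CtslΔTEC cells (y axis), with standard errors as bars, Mrpl symbols in blue and Mrps symbols in orange. Most members lie near the line of equal change at positive values, and Mrpl34 lies under it, at −0.90 and −2.13.

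The 2 members past the threshold of the interaction were Mrpl34 and Mrpl33. Mrpl34 fell by 1.23 more on the log2 scale in CtslΔTEC than in control cells (SE 0.32, adjusted p = 0.051, edgeR), and this difference was −0.66 without stimulated control mouse 5. It missed the threshold without that mouse and also without stimulated CtslΔTEC mouse 6 (−1.21) or 7 (−1.27). Each of these fits leaves 1 library in a group, whose spread is then taken from the other groups. Mrpl33 (ENSMUSG00000106918; chromosome 5, 31596935 to 31664384), a large-subunit protein with a bacterial counterpart, was at 43.2, 43.1, 47.7 and 49.5 CPM in unstimulated control mice and at 31.9 to 38.1 CPM (median 35.1) in unstimulated CtslΔTEC mice. After stimulation it was at 73.7 and 70.0 CPM in control and at 83.9 and 72.0 CPM in CtslΔTEC mice. The genotypes were apart before stimulation and overlapped after it. Its response was 0.65 (SE 0.10) in control and 1.14 (SE 0.09) in CtslΔTEC cells. Under alternative settings these responses were as low as 0.38 and 0.73. The interaction of Mrpl33 was 0.49 (SE 0.14, adjusted p = 0.068, edgeR). The interaction missed the threshold without stimulated CtslΔTEC mouse 6 (0.38), stimulated control mouse 5 (0.52) or 6 (0.45), unstimulated CtslΔTEC mouse 4 (0.49) or unstimulated control mouse 3 (0.47).

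Between genotypes the family differed little. In unstimulated cells 0 members were higher in CtslΔTEC cells by edgeR, DESeq2 or limma, where 6.42% of the 13152 genes tested were by edgeR, and 2 were lower, where 8.36% of all genes were (14.8% in either direction). At an unadjusted p under 0.05, edgeR gave 2 higher and 5 lower. The median log2 fold change of the members was −0.05 against 0.01 over all genes, and it turned to 0.02 without control mouse 4 and with the level of Y-linked transcripts as a covariate, to 0.0015 within the second file date alone, and was −0.08 without control mouse 1. With all 9 mice, all 78 values lay between −0.37 and 0.29. Cytosolic ribosomal proteins had a median of −0.17, with 13 of 82 lower by edgeR, 18 by DESeq2 and 3 of 83 by limma. Respiratory chain genes had a median of −0.08 and 0 of 78 past the threshold by edgeR, DESeq2 or limma (3 at an unadjusted p under 0.05 by edgeR). The 2 members that were lower were Mrpl33 and Mrps17. Mrpl33 had a log2 fold change of −0.37 (SE 0.07, adjusted p = 0.0072), and it was lower in each of the 5 CtslΔTEC mice than in each of the 4 control mice, as were 7.92% of all genes, while 0 members were higher without overlap, as were 5.95% of all genes. Within the second of the 2 file dates alone, with 3 mice per genotype, it was −0.28, and with date as a factor −0.37. The first date holds 2 CtslΔTEC mice and 1 control mouse, too few for a value of its own.

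Y-linked transcripts (Ddx3y, Eif2s3y, Kdm5d and Uty) summed to 171 to 242 TPM in all 5 unstimulated CtslΔTEC mice and to 181 TPM in 1 control mouse, against 2.11 to 3.02 TPM in the other 3. With their level as a covariate the log2 fold change of Mrpl33 was −0.42 and it missed the threshold, as did all members. Over all 13152 genes tested, 118 were then higher and 304 lower, against 844 and 1099 without the covariate, so calls became fewer in general. Mrps17, a small-subunit protein with a bacterial counterpart, was at 52.2, 56.4, 54.5 and 52.4 CPM in control and at 45.6 to 50.3 CPM (median 47.9) in CtslΔTEC mice, without overlap. Its log2 fold change was −0.17 (SE 0.06, adjusted p = 0.096), and it missed the threshold under 18 of 22 alternative settings. Next by p were Mrps12 (−0.30, SE 0.12, adjusted p = 0.15) and Mrps9 (0.15, SE 0.06, adjusted p = 0.18), whose values overlapped between genotypes.

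In stimulated cells 1 member was higher in CtslΔTEC cells, where 2.77% of the 14241 genes tested were, and 2 were lower, where 10.6% of all genes were (13.3% in either direction). Markers differed between these libraries too. The double-positive markers summed to 61.5 and 63.1 TPM in CtslΔTEC and to 26.1 and 32.0 TPM in control cells, and the activation markers to 9790 and 10141 TPM and to 6954 and 9203 TPM. Among the latter, Il2 was at 4.18 and 7.79 TPM in CtslΔTEC and at 71.1 and 73.0 TPM in control cells. Their part in the differences of the members was not tested. The median of the members was −0.05, the same as the −0.05 over all genes, and it was 0.08 without stimulated control mouse 5 and −0.17 without stimulated control mouse 6. Mrpl34 was at 3.52 and 3.67 CPM in CtslΔTEC and at 13.5 and 6.29 CPM in control mice, a log2 fold change of −1.38 (SE 0.28, adjusted p = 0.0071). It was past the threshold under each of 23 alternative settings, with values from −1.91 to −0.81. Mrpl4, which lines the exit tunnel, was at 29.3 and 40.5 CPM in CtslΔTEC and at 47.0 and 52.2 CPM in control mice, a log2 fold change of −0.51 (SE 0.17, adjusted p = 0.079). Mrpl23, a protein at the tunnel exit, was at 21.8 and 25.4 CPM in CtslΔTEC and at 11.1 and 18.3 CPM in control mice, a log2 fold change of 0.65 (SE 0.22, adjusted p = 0.088). Mrpl4 missed the threshold under 10 of 23 alternative settings and was −0.30 without stimulated CtslΔTEC mouse 6 and −0.77 without stimulated CtslΔTEC mouse 7. Mrpl23 missed it under 9 of 23 and was 0.36 without stimulated control mouse 5 and 1.08 without stimulated control mouse 6. For these 3 members the genotypes did not overlap, but 20 members in all were lower and 13 higher without overlap, where 30.2% and 19.4% of all genes were. The next member by p was Mrpl44 (−0.34, SE 0.13, adjusted p = 0.12).

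Mrpl23 is uncertain. Between 78.5% and 95.7% of its counts in a library were on retained-intron transcripts, it has a processed pseudogene, Mrpl23-ps1, with 310 to 1037 counts per library, and on protein-coding transcripts alone its log2 fold change between stimulated genotypes was 0.58 and missed the threshold. Over the 78 members 11.3% to 12.96% of counts were on retained-intron transcripts in unstimulated control, 12.7% to 15.1% in unstimulated CtslΔTEC, 12.2% and 15.6% in stimulated control and 16.0% and 16.4% in stimulated CtslΔTEC libraries. Over all genes the share was lower, with the same order of group medians, at 5.16% to 5.80%, 5.62% to 6.62%, 6.02% and 7.66%, and 7.97% and 8.58% in the same 4 groups. It was highest in the stimulated CtslΔTEC libraries in both cases. Its part in the results was not tested beyond counting protein-coding transcripts alone. That setting gave 58 members higher in each response, where 4211 (control) and 4275 (CtslΔTEC) of the 12671 genes tested were higher. Exons of 28 members share bases with a gene on the opposite strand and those of 8 with one on the same strand.

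**Figure D4:**
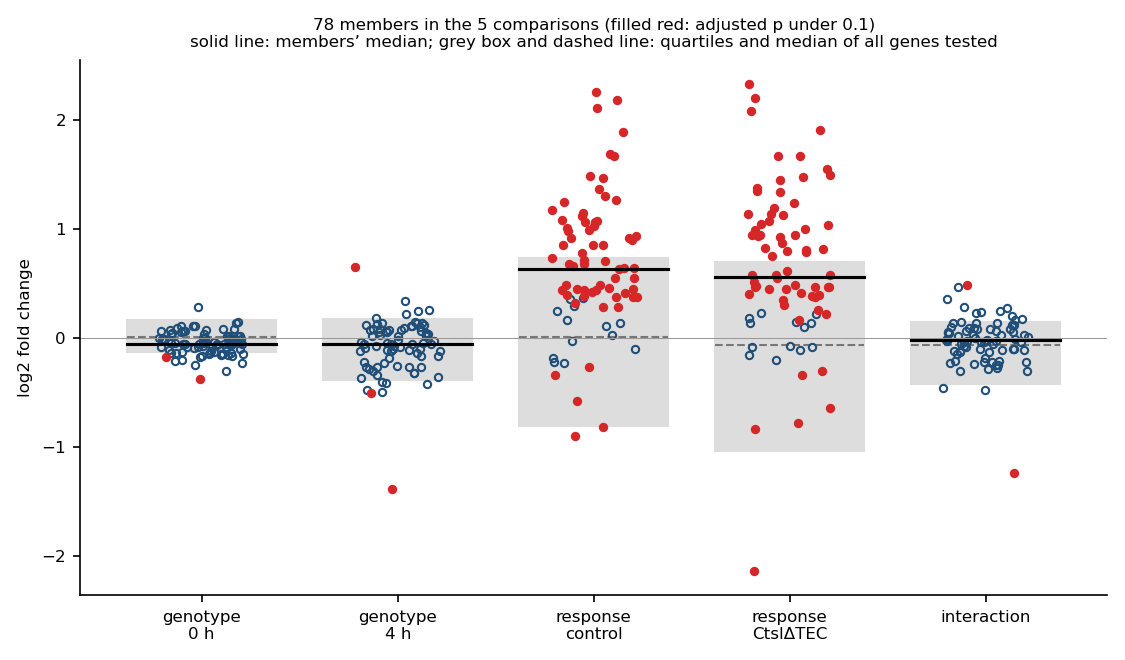
Log2 fold changes of the 78 members (points, filled red where the adjusted p was under 0.1) in the 5 comparisons, with their median (solid line) and the quartiles and median of all genes tested (grey box and dashed line). The members' medians are 0.64 and 0.57 in the responses, and −0.05 in both genotype comparisons.

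Other genes of mitochondrial translation were taken from lists by role. Over all genes 32.9% rose in each genotype, and 34.8% fell in control and 38.2% in CtslΔTEC cells. Of 5 subunits of the ribosome with other symbols, 3 rose and 1 fell in each response, and Ptcd3 had the smallest p, with means of 77.5 and 162 CPM in control cells and log2 fold changes of 1.06 and 1.12. Chchd1 had 0.89 in each genotype and Gadd45gip1 0.53 and 0.42. Of 19 translation factors and related proteins, 9 rose and 5 fell in control and 8 rose and 5 fell in CtslΔTEC cells, so that 47.4% and 42.1% rose and 26.3% fell in each. C1qbp, a matrix protein needed for mitochondrial translation, rose from a mean of 59.0 to 279 CPM in control cells, a log2 fold change of 2.24, and by 2.27 in CtslΔTEC cells. The elongation factors Tufm (0.93 and 0.80) and Tsfm (1.07 and 0.86) and Lrpprc, which stabilizes mitochondrial mRNA (0.94 and 0.91), rose as well. Mtif3, an initiation factor, fell by 0.94 and 0.86 on the log2 scale. It was also the only factor of that list lower in unstimulated CtslΔTEC than in control cells (−0.22, adjusted p = 0.073).

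Of 29 assembly factors, 16 rose and 7 fell in control and 16 rose and 8 fell in CtslΔTEC cells. Mrm3, a methyltransferase of the large-subunit rRNA, had log2 fold changes of 1.95 and 2.20, Rcc1l 1.84 and 2.15, the pseudouridine synthase Trub2 1.16 and 0.92, and Nsun4 0.80 and 0.98. Rbfa, which matures the small subunit, went the other way. Its means were 66.3 CPM in control and 50.5 CPM in CtslΔTEC cells before stimulation and 49.7 and 26.7 CPM after it. It was lower in CtslΔTEC cells at both times, with log2 fold changes of −0.39 (adjusted p = 0.0036) and −0.89 (adjusted p = 0.0016). Mrm2, another rRNA methyltransferase, was lower in stimulated CtslΔTEC cells (−1.10, adjusted p = 0.029).

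Of 17 mitochondrial tRNA synthetases, 9 rose in each response, and 3 fell in control and 5 in CtslΔTEC cells. Yars2 had 1.23 and 1.18 and Tars2 0.91 and 1.23, while Cars2 fell by 1.47 and 1.88 on the log2 scale. Iars2 was lower in stimulated CtslΔTEC cells (−0.36, adjusted p = 0.055). Of 8 genes of mitochondrial transcription and replication, 4 rose and 2 fell in each response. The helicase Twnk had 0.75 and 0.96, Tefm, an elongation factor of mitochondrial transcription, 1.18 and 1.19, and Mterf2 −1.66 and −2.21. The medians of these lists, 0.13 to 0.53 in control and −0.04 to 0.42 in CtslΔTEC cells, lay under those of the 78 members.

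The transcripts that mitochondrial ribosomes translate were taken as a further list. Of the 13 protein-coding genes of mitochondrial DNA, 2 rose (mt-Nd1 and mt-Co2) and 3 fell in control cells, and 6 fell in CtslΔTEC cells. The shares that fell were 23.1% and 46.2%, against 34.8% and 38.2% of all genes. None rose in CtslΔTEC cells by edgeR, with 0 higher at an unadjusted p under 0.05, 1 past the threshold by DESeq2 and 0 by limma. Their median log2 fold changes were −0.06 and −0.46. They took 4.97% to 7.23% of TPM without and 4.72% to 6.23% with stimulation, ranges that overlap. Between stimulated genotypes their median was −0.40, with 0 past the threshold by edgeR, 2 at an unadjusted p under 0.05, 1 past the threshold by DESeq2 and 0 by limma.

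Genes that share a start region with a member moved in both directions. Of 17 such neighbours tested, 8 rose and 5 fell in control and 6 rose and 5 fell in CtslΔTEC cells, where 32.9% of all genes rose in each. Their median log2 fold changes were 0.26 and 0.03, against 0.01 and −0.06 over all genes. Ppp1r10, which starts 45 bases from Mrps18b, had 0.26 and −0.04 where Mrps18b had 2.19 and 2.33. Members with NRF1 letters (n = 13) had median responses of 0.64 in control and 0.59 in CtslΔTEC cells, and those without (n = 56) 0.55 and 0.53. Those with ETS letters (n = 26) had 0.45 and 0.53, against 0.66 and 0.59 for the other 43. The 12 members with YY1 letters had 0.67 and 0.82, against 0.49 and 0.52 for the other 57. The 5 with E-box letters had 0.90 and 0.75, against 0.52 and 0.50 for the other 64. These medians are given as a description, with no test.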

How the data were processed

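RNA from M2 CD4SP thymocytes was sequenced, with 1 library per mouse, and grouped by the genotype and stimulation in the labels. Per transcript and library, the authors deposited estimated counts, effective lengths and TPM, obtained with kallisto 0.48 and Ensembl release 106. The labels call the RNA polyadenylated, whereas the methods describe rRNA depletion. Of 117497 transcripts, 116397 were paired with a gene through GENCODE M21 (GRCm38), and those left over held up to 0.461% of the counts. Estimated counts and TPM were summed to genes, with rounding of the counts. Coordinates come from the same annotation.

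Comparisons over the genes kept by filterByExpr were made with edgeR 4.0.16 under R 4.3.3 (quasi-likelihood test, TMM, Benjamini-Hochberg adjustment, threshold 0.1). The unstimulated comparison used 9 libraries, and the others a 4-group model of 13. P-values measure the spread between mice. In the 4-group model this spread is shared over the groups, and the more numerous unstimulated mice contribute most to it. P-values between stimulated genotypes and of the interaction therefore rest largely on the spread of unstimulated, uncultured cells. Whether stimulated cells vary to the same degree was not tested. Depth sets the precision: the interval of a count covers counting error only. Each standard error is the absolute log2 fold change divided by the square root of F. On simulated data with 200 genes changed by 1 on the log2 scale, edgeR recovered 187 between unstimulated genotypes with 23 false calls. It recovered 129 between stimulated genotypes (12 false calls), 147 and 148 in the responses (16 and 12) and 91 in the interaction (13). Every simulated gene had the same spread, without effects of date, sex or culture. These counts are therefore not the power of the real comparisons. Alternatives included DESeq2 1.42.0, limma 3.58.1 on log2(TPM + 1), other scalings and filters, date, and leaving out each of the 13 mice in turn.

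The members, gene lists and tests were chosen with earlier results of these data known. The gene lists were written from general knowledge. Named members were up to 8 per direction and comparison with the largest change past the threshold and a mean of at least 1 log2 CPM, the 4 smallest p where fewer than 4 passed, 11 members of known role, and the 4 highest and 4 lowest by TPM. Of other lists, up to 3 genes per comparison with the smallest p were named. Mrpl14, Mrpl22, Mrpl27, Mrpl48, Mrpl53, Mrps5, Mrps15, Mrps16, Mrps25, Mrps26, Mrps31, Mrps33 and Mrps34, and Ppp1r10, mt-Nd1 and mt-Co2, were named after their values were seen. The summed levels of the mature CD4SP and erythroid markers are not reported here.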

Additional observations from a re-analysis of the deposited data

Results flagged for a closer look

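Mrpl34 and Mrpl33 responded differently in the genotypes by the interaction test of edgeR. The difference between the responses was −1.23 on the log2 scale for Mrpl34 (adjusted p = 0.051) and 0.49 for Mrpl33 (adjusted p = 0.068). For Mrpl34 it ranged from −1.76 to −0.66 when single mice were left out, and it missed the threshold without stimulated control mouse 5 (−0.66) or stimulated CtslΔTEC mouse 6 (−1.21) or 7 (−1.27). For Mrpl33 the threshold was missed under 10 of 22 alternative settings.

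Within the unstimulated groups, a mouse far from the others was found for 4 of 68 group values examined, where chance gives about 3.4. Mrpl23 was at 8.77 CPM in control mouse 3 and at 6.26 to 6.34 CPM in the other 3 control mice. Control mouse 4 had 23.4 CPM of Mrpl52, against 14.9 to 16.0 in the others, and 29.5 CPM of Mrps35, against 24.1 to 24.5. The ratio of summed TPM of Mrpl to Mrps symbols was 1.71 in control mouse 2 and 1.59 in each of the other control mice.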

How the results depend on the processing

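The numbers of members past the threshold in the responses stayed within 1.5 times the reported 65 under all 24 alternatives, at 53 to 68 in control and 52 to 66 in CtslΔTEC cells, and leaving out 1 mouse gave 53 to 67 and 52 to 65. The lowest values came without stimulated control mouse 5 and without stimulated CtslΔTEC mouse 7. The members' median stayed positive, at 0.51 to 0.69 and 0.42 to 0.64. Scaling by library totals moved the median of all genes in the CtslΔTEC response by −0.14, and the members then lay 0.63 above it. The genotype counts were small and less stable. Between unstimulated genotypes (2 members), 1 member passed at an adjusted p under 0.05, with upper-quartile scaling, with every gene with a count, with the length offset, with limma, and in the 4-group model, 4 with date as a factor and 0 by edgeR with the Y-linked covariate (1 at an unadjusted p under 0.05). Calls over all genes moved as well, from 844 higher and 1099 lower of 13152 tested. They were 653 and 1061 of 21737 with every gene with a count and 718 and 580 of 11035 with limma. With date as a factor they were 1239 and 1471, and with the Y-linked covariate 118 and 304. Leaving out single mice gave 1 to 3 members, with 1 without CtslΔTEC mouse 2, 4 or 5 or control mouse 1 or 2. Scaling by library totals made 56.8% of all calls higher in CtslΔTEC cells, against 43.4% with TMM, and 1 member was then higher and 1 lower. Mouse numbers are shared between genotypes but name different mice, whose deviations did not correlate throughout (−0.14, 0.30, −0.07 and −0.15). With the number as a replicate block 1 member passed. Between stimulated genotypes (3 members), 1 passed at 0.05 and 1 with the 4 stimulated libraries alone, and 1 to 5 without single mice, with 5 without stimulated control mouse 6 or unstimulated control mouse 4, and 1 without stimulated control mouse 5, stimulated CtslΔTEC mouse 6 or unstimulated CtslΔTEC mouse 5. In the interaction (2 members), 0 passed at 0.05 by edgeR (3 at an unadjusted p under 0.05, and 2 past 0.1 by DESeq2), 1 with every gene with a count, the length offset, protein-coding transcripts, limma or the Y-linked covariate, and 0 to 3 without single mice, with 0 without stimulated control mouse 5 or stimulated CtslΔTEC mouse 6 (2 and 3 at an unadjusted p under 0.05) and 1 without stimulated CtslΔTEC mouse 7, unstimulated CtslΔTEC mouse 4 or unstimulated control mouse 3. Without a stimulated mouse, the lone library of its group is assumed to vary like the other groups. The cause was not tested. Of 63 values of named members past the threshold, 43 stayed past it under every alternative, and none changed sign. With 2 stimulated mice per genotype and 8085463 counts in the shallowest library, differences between stimulated genotypes smaller than their standard errors were not detectable. Differences larger than their standard errors could be missed too.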
